A study of Mus musculus with 18 samples.

Results

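Messenger RNA of 8 chemokine receptors was followed in mouse dendritic cells (DCs) that migrated through collagen. The receptors were Ccr7, Ccr1, Ccr2, Cxcr2, Cx3cr1, Cxcr4, Ackr3 and Ccrl2. They were chosen by name, as 8 of the 29875 gene rows of the deposited count table, and all 8 passed the filter on low counts that left 13844 genes for testing. DCs were grown from bone marrow of wild-type males of the C57Bl6/J strain (age 8 to 12 weeks) in medium with granulocyte-macrophage colony-stimulating factor, and were matured with lipopolysaccharide (LPS, 200 ng/ml) for 24 hours from differentiation day 8. The cells carried no transgene or deletion, so the 6 groups differed by their surroundings. In 4 groups the DCs sat in bovine collagen gels of 1.7, 2.6, 3.5 or 4.4 mg/ml, a range from loose to dense networks, in chambers with a gradient of CCL19. In the other 2 groups the cells were put in the same chambers with no collagen, here called suspension. RNA was taken 5 hours after the gradient was set up, and each group had 3 libraries, which makes 12 collagen and 6 suspension libraries. The sample titles place CCL19 in one suspension group and not in the other, while the names of the libraries say the opposite, so these groups are called by their titles and no direction is drawn from them. By either label only part of the suspension libraries had CCL19, whereas all gels had its gradient. Collagen and CCL19 are therefore partly confounded in every comparison with suspension, and their parts cannot be told apart there.

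Chemokine receptors are seven-pass membrane proteins that couple to inhibitory G proteins and steer leukocytes along gradients of small secreted proteins. A maturing DC is known to exchange its receptors for inflammatory chemokines (such as CCR1 and CCR2) for CCR7, the receptor for CCL19 and CCL21, and to follow these ligands into lymphatic vessels and on to the lymph node. CXCR4 and ACKR3 both bind CXCL12, of which CXCR4 signals through G proteins while ACKR3 mainly removes the ligand. CCRL2 presents chemerin and does not signal as a typical receptor, CX3CR1 binds fractalkine, and CXCR2 is best known from neutrophils.

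Counts scaled to library size (CPM, after TMM scaling) were used to compare a gene between libraries, and the same counts also divided by exon length (RPKM) to compare levels between genes. Library totals ran from 13062944 to 28059839 counts with a median of 17344953.5, so that 3 counts stood for 0.0941 to 0.256 CPM. DC markers (Itgax, Flt3, Zbtb46, H2-Aa, H2-Ab1, Cd74 and Ciita) were above 0 in every library, and their summed level lay between 14263 and 45702 CPM. In collagen against suspension, Ciita (log2 fold change -1.03, adjusted p = 0.00492) and Flt3 (-1.12, adjusted p = 0.0446) fell in both fits, and Itgax rose with the replicate block alone (0.72, adjusted p = 0.0168). Markers of neutrophils, eosinophils, macrophages, and basophils and mast cells were also present. Marker sums are given beside several receptors. Library names shared a string within each replicate number, read here as run, date and sequencing lane, which the labels do not explain. The run part differed between replicate 2 and replicates 1 and 3. Each replicate number covered all 6 groups once. A fit without this number and a fit with it as a block are therefore both given where they differ.

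Per transcript length, Ccr7 stood far above all other receptors. Its level was 2040 ± 494 RPKM (SD, n = 18 libraries), it ranked between 8 and 35 among 13841 genes, and it made up 81.2 to 98.3% of the summed RPKM of the 22 chemokine receptors analysed. Cxcr4 at 56.5 RPKM (range 8.18 to 142), Ccr1 at 51.9 (12.1 to 111) and Ccrl2 at 49.3 (3.77 to 156) followed, and their ranges overlapped so widely that their order was not separated by the spread between libraries. Ackr3 (3.18 RPKM, range 0 to 12.2), Cxcr2 (1.86, range 0.122 to 6.50), Ccr2 (0.642, range 0.177 to 1.74) and Cx3cr1 (0.381, range 0 to 0.890) formed the low end, again with overlapping ranges. No library of Ccr7 overlapped any library of the other 7 receptors on the RPKM scale. Cx3cr1 with 0 to 88 counts per library and Ccr2 with 18 to 304 counts rested on few reads.

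**Figure D1:**
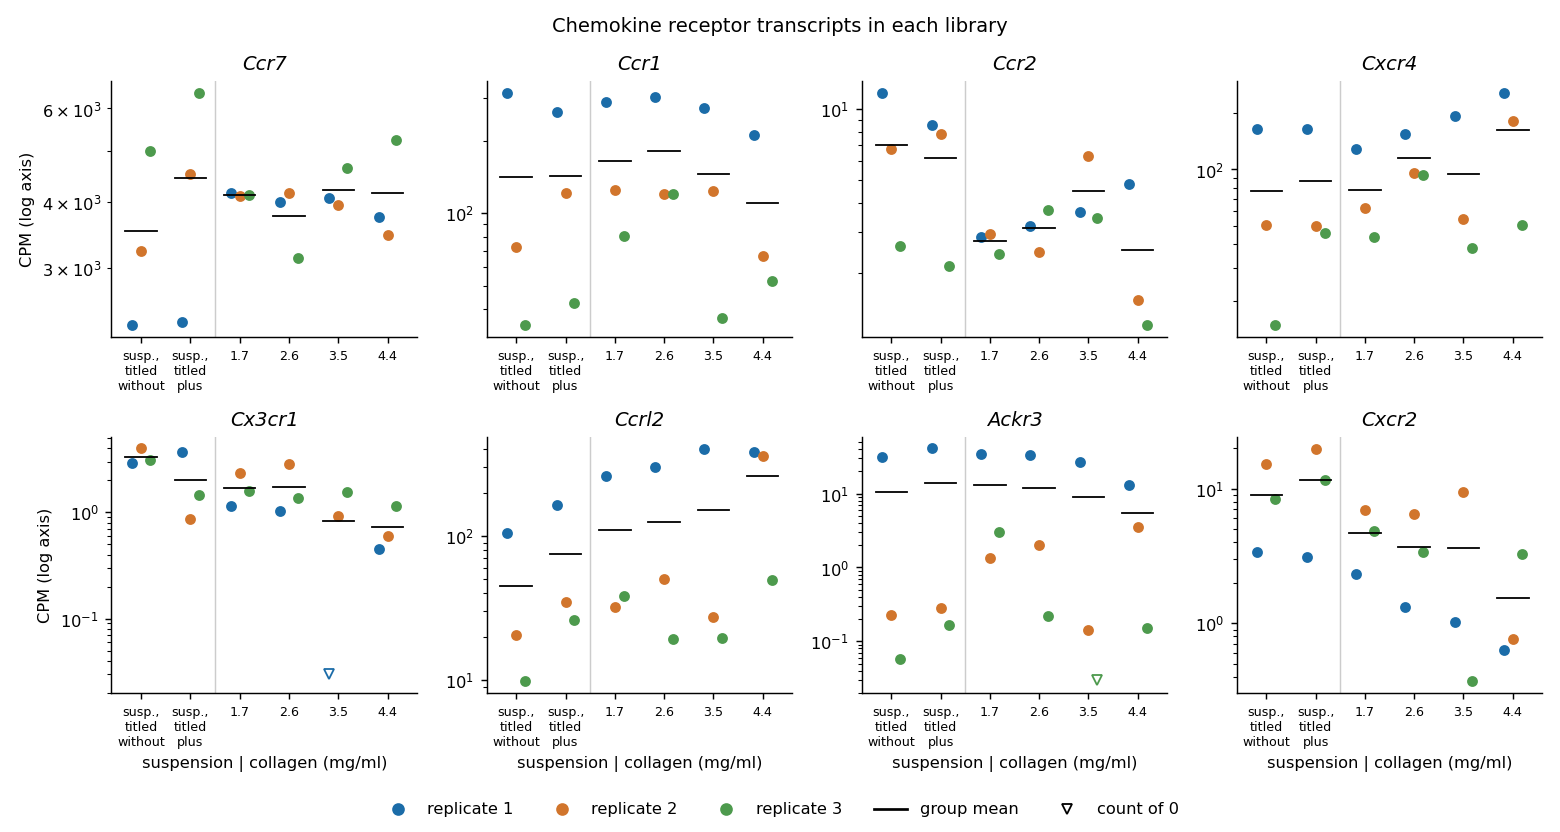
Level of each of the 8 receptors in the 18 libraries, in CPM on a log axis with its own range for each receptor, by group (the 2 suspension groups by their titles, then collagen in mg/ml), coloured by replicate number, with group means as bars and counts of 0 as open triangles. Ccr7 lies between 2342 and 6425 CPM, whereas replicate 1 is the highest of its group for Ccr1, Ccrl2, Cxcr4 and Ackr3 throughout.

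Ccr7 (ENSMUSG00000037944, chromosome 11, 99144196 to 99155077, minus strand, GRCm38) was not called different between collagen and suspension. At 1.7 mg/ml it measured 4153, 4102 and 4119 CPM in replicates 1, 2 and 3. The values were 3996, 4167 and 3132 CPM at 2.6 mg/ml and 4062, 3945 and 4630 CPM at 3.5 mg/ml. In the densest gel they were 3750, 3462 and 5244 CPM. The collagen libraries were thus close to each other, and the loosest gel had the tightest triplet, at 4125 ± 26.0 CPM (SD, n = 3). In the suspension group titled with CCL19 it measured 2376, 4515 and 6425 CPM, and in the group titled without it 2342, 3234 and 4989 CPM. Suspension libraries therefore lay both below and above all collagen libraries. The mean was 4063 ± 529 CPM in collagen (SD, n = 12) and 3980 ± 1618 CPM in suspension (SD, n = 6). The log2 fold change was 0.04 ± 0.22 (SE; 95% interval -0.42 to 0.49; adjusted p = 0.932), and with the replicate block 0.10 (interval -0.29 to 0.49; adjusted p = 0.731). Both intervals ended short of 0.5 in log2. They rest on the spread between libraries, each taken as independent, although the difference varied among the replicate numbers, as given next.

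Replicate by replicate, Ccr7 went different ways. In replicate 1 collagen libraries (3750 to 4153 CPM) were all above both suspension libraries, by 0.76 in log2. In replicate 2 the mean difference was 0.03, and in replicate 3 it was -0.43. A test of whether the collagen difference itself varied among replicate numbers, added after these values were seen, gave an unadjusted p of 0.00942 and an adjusted p of 0.600 for Ccr7 in edgeR. The same test called 0 of the 13844 genes. The sample titles call the replicates biological. The labels do not say whether replicate numbers came from separate animals or cultures, so all p-values here measure the spread between these libraries.

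CCR7 is a marker of DC maturity, and other maturation genes were mostly without a call. Of 12 tested genes of a DC maturation list, 2 rose in collagen and 0 fell, namely the costimulatory ligand Cd80 (log2 fold change 0.78, adjusted p = 0.0296) and Cd200 (0.67, adjusted p = 0.0604). The share of all genes called in this comparison was 20.2% without the block. The summed level of the maturation list was 6793 to 15428 CPM in collagen and 5208 to 15129 CPM in suspension. After removal of each replicate number's mean, Ccr7 followed this sum with r = 0.811 over the 18 libraries, the DC marker sum with r = 0.707 and the neutrophil marker sum with r = 0.729. These points share libraries and scaling, so the values are descriptions. The 3 genes most like Ccr7 on that measure were Fkbp4 (r = 0.903), Plrg1 (r = 0.898) and Tmem173 (r = 0.898).

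Between collagen and suspension, 2 of the 8 receptors were called without the replicate block, both lower in collagen, against 20.2% of all genes (12.4% lower, 7.78% higher). With the block 5 of 8 were called, 3 lower and 2 higher, against 34.8% of all genes (19.3% lower, 15.6% higher). Cxcr2 and Ccr2 fell in both fits, Cx3cr1 fell and Ccrl2 rose with the block alone, and so did Cxcr4. The median log2 fold change of the 8 receptors was -0.17 (0.19 with the block), beside 0.0027 (0.008) over all tested genes.

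**Figure D2:**
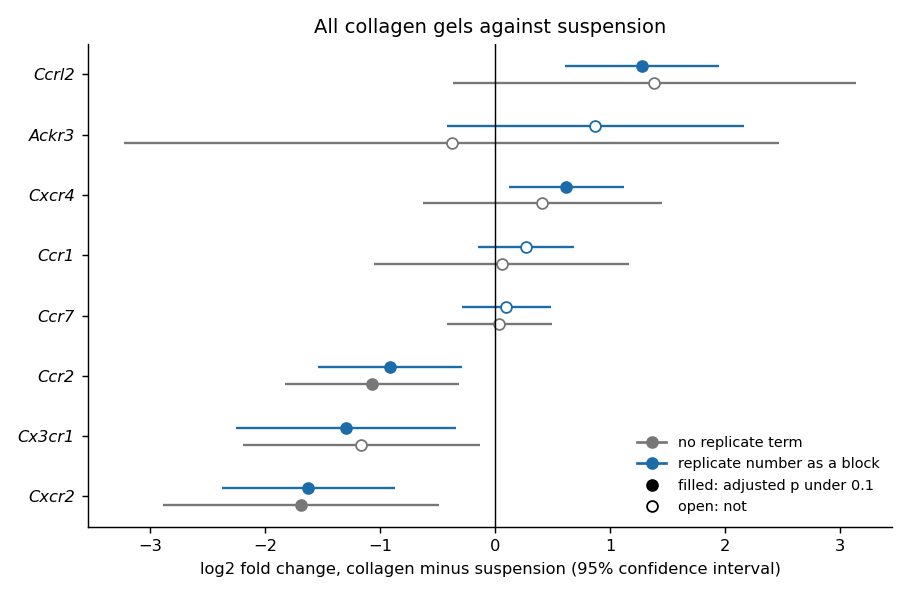
Log2 fold change of collagen (12 libraries) against suspension (6 libraries) for the 8 receptors, from the fit without and the fit with the replicate block, with 95% intervals and a line at 0. Cxcr2 and Ccr2 lie below 0 in both fits, Ccrl2 reaches an interval of 0.61 to 1.95 only with the block, and Ccr7 is centred near 0 with the shortest interval.

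Cxcr2 (ENSMUSG00000026180, chromosome 1, 74153989 to 74161246, plus strand), the receptor for CXCL1 and related chemokines, had the largest fall among the 8. In replicates 1, 2 and 3 it measured 2.31, 6.90 and 4.83 CPM at 1.7 mg/ml, and 1.32, 6.43 and 3.39 CPM at 2.6 mg/ml. It was at 1.03, 9.41 and 0.372 CPM at 3.5 mg/ml and at 0.632, 0.768 and 3.25 CPM in the densest gel. Suspension libraries measured 3.12, 19.8 and 11.6 CPM in the group titled with CCL19 and 3.36, 15.2 and 8.40 CPM in the group titled without it. Within every replicate number all 4 collagen libraries were below both suspension libraries, a separation shared by 4.19% of all tested genes and by no other of the 8 receptors. No receptor had all collagen libraries above suspension in this way, as 2.43% of genes did. Means were 3.39 ± 2.93 CPM (SD, n = 12) in collagen and 10.2 ± 6.62 CPM (SD, n = 6) in suspension. The log2 fold change was -1.69 ± 0.57 (SE; interval -2.89 to -0.49; adjusted p = 0.0596), or -1.62 ± 0.36 with the block (adjusted p = 0.00297). By replicate number the difference was -1.36, -1.98 and -2.12. Of the possible reads of 50 bases from Cxcr2 exons, 6.68% also occur in exons of other genes. Without the block the call was lost when replicate 2 (adjusted p = 0.130) or replicate 3 (adjusted p = 0.150) was left out.

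Since Cxcr2 is carried by neutrophils, 10 neutrophil markers (Ly6g, S100a8, S100a9, Camp, Ltf, Ngp, Retnlg, Mpo, Elane, Csf3r) were set beside it. None was at 0 in any library, and their sum was 1057 to 5175 CPM in collagen and 639 to 9775 CPM in suspension. Of the 10, Retnlg (log2 fold change -1.74, adjusted p = 0.0105) and Ly6g (-1.27, adjusted p = 0.0245) fell. In replicate 1 the neutrophil sum was 1057 to 1586 CPM in collagen and 639 to 735 CPM in suspension. Replicate 2 had 1406 to 5175 CPM in collagen and 1959 and 9775 CPM in suspension. Replicate 3 had 1551 to 2996 CPM in collagen and 2696 and 3992 CPM in suspension. Without the block, 2 of 10 markers called stood beside 20.2% of all genes (12.4% lower). With it Retnlg and Ly6g were again the pair called, beside 34.8% of all genes (19.3% lower). Centred by replicate, Cxcr2 had r = 0.446 with the neutrophil sum and r = 0.557 with the sum of 8 eosinophil markers over 18 libraries. That eosinophil sum was 13.6 to 169 CPM in collagen and 115 to 1356 CPM in suspension. The part of either cell type in the Cxcr2 difference was not tested, and in bulk RNA fewer cells of a type cannot be told apart from less RNA per cell.

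**Figure D3:**
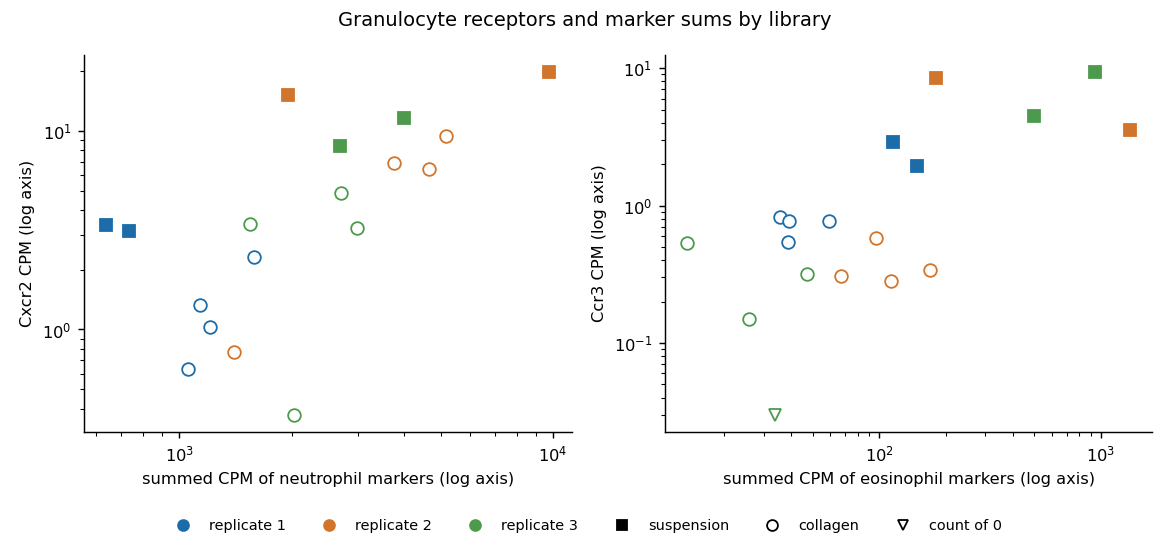
Cxcr2 against the summed level of 10 neutrophil markers, and Ccr3 against the summed level of 8 eosinophil markers, each point a library, in CPM on log axes, with filled squares for suspension, open circles for collagen (a triangle for a count of 0) and colours for replicate numbers. Collagen libraries lie low on the Ccr3 axis (0 to 0.823 CPM) and suspension libraries high (1.94 to 9.42 CPM), while the neutrophil sums of both overlap.

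The 245 bases upstream of the Cxcr2 start are printed here as its promoter, since this gene fell in both fits, with those of other receptors following where they are described. Windows are from RefSeq (GRCm38.p6) and read 5′ to 3′ on the strand of the gene, in lower case with searched motifs in capitals.
Cxcr2 (chr1:74153744-74153988, plus strand): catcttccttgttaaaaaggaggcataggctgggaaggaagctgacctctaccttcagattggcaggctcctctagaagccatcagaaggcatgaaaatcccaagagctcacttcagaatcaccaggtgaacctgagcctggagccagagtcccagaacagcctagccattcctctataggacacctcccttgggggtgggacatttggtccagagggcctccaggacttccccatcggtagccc
The motifs searched on both strands were kappaB (GGG-NN-TTTCC), AP1 (TGANTCA), CRE (TGACGTCA), CEBP (TTGCNNAA), ISRE (GAAA-NN-GAAA) and the TATA box (TATAAA). Of 32851 such windows in the reference, 1.41%, 6.75%, 1.55%, 9.56%, 2.98% and 12.4% held them. The Cxcr2 window held none of them, and looser forms of these patterns were not searched.

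Ccr2 (ENSMUSG00000049103, chromosome 9, 124101950 to 124113557, plus strand), the receptor of monocytes and inflammatory DCs for CCL2, was low and fell in collagen. Its values in replicates 1, 2 and 3 were 2.85, 2.93 and 2.42 CPM at 1.7 mg/ml and 3.18, 2.46 and 3.73 CPM at 2.6 mg/ml. They were 3.63, 6.32 and 3.43 CPM at 3.5 mg/ml and 4.78, 1.54 and 1.20 CPM at 4.4 mg/ml. In suspension it measured 8.59, 7.80 and 2.16 CPM in the group titled with CCL19 and 11.7, 6.74 and 2.61 CPM in the other. Suspension was above collagen throughout replicates 1 and 2, whereas in replicate 3 the groups overlapped. The means were 3.21 ± 1.38 CPM (SD, n = 12) and 6.61 ± 3.68 CPM (SD, n = 6), with a log2 fold change of -1.07 ± 0.36 (SE; interval -1.83 to -0.31; adjusted p = 0.0584). With the block it was -0.91 ± 0.30 (adjusted p = 0.0298). By replicate number the difference was -1.47, -1.29 and 0.06, and the call without the block was lost without replicate 1 (adjusted p = 0.259) or replicate 2 (adjusted p = 0.374). Of the possible reads of 50 bases from Ccr2 exons, 1.91% also occur in exons of other genes.

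Cx3cr1 (ENSMUSG00000052336, chromosome 9, 119901616 to 120069879, minus strand), the fractalkine receptor, was the lowest of the 8. Its collagen libraries ran from 0 to 2.82 CPM with a median of 1.15, and its suspension libraries from 0.858 to 4.01 CPM with a median of 3.00. The library at 3.5 mg/ml, replicate 1, had no count, which allows a level of up to 0.206 CPM. The difference was -1.16 ± 0.49 in log2 (SE; adjusted p = 0.127), and -1.29 ± 0.46 with the block (adjusted p = 0.0437), where it passed. In each replicate number the mean in collagen was lower (-2.64, -0.41 and -0.56), although single libraries overlapped in replicates 2 and 3. Exons of Cx3cr1 overlap those of the antisense gene Gm33858 by 78 bases. The libraries were made with a kit that keeps strand, but the strand setting of the counting is not given in the sources used here, so reads there may belong to either gene.

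Ccr1 (ENSMUSG00000025804, chromosome 9, 123962124 to 123968692, minus strand), the receptor for CCL3, CCL5 and related inflammatory chemokines, differed mainly by replicate number. In replicate 1 its 6 libraries ran from 211 to 316 CPM, in replicate 2 from 66.7 to 125 CPM and in replicate 3 from 34.3 to 120 CPM. Replicate 1 did not overlap the others, and the replicate number held 81.9% of the variance of its log2 CPM. Collagen stood at 150 ± 94.5 CPM (SD, n = 12) and suspension at 141 ± 119 CPM (SD, n = 6), with a log2 fold change of 0.06 ± 0.52 (SE; adjusted p = 0.957) that was 0.27 with the block (adjusted p = 0.336).

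Ccrl2 (ENSMUSG00000043953, chromosome 9, 111054486 to 111057519, minus strand), the chemerin-binding receptor, had the widest range among the abundant receptors. At 1.7 mg/ml it measured 261, 32 and 38.1 CPM in replicates 1, 2 and 3, and at 2.6 mg/ml 303, 50.4 and 19.3 CPM. At 3.5 mg/ml the values were 404, 27.5 and 19.4 CPM, and at 4.4 mg/ml 381, 357 and 49.8 CPM. In suspension it measured 165, 34.8 and 25.9 CPM in the group titled with CCL19 and 105, 20.7 and 9.80 CPM in the group titled without it. Replicate 1 was high in every group, and the densest gel of replicate 2 was the single library outside replicate 1 at such a level. Collagen was at 162 ± 163 CPM (SD, n = 12) and suspension at 60.2 ± 61.6 CPM (SD, n = 6). The log2 fold change was 1.39 ± 0.83 (SE; adjusted p = 0.296) without the block, and 1.28 ± 0.32 with it (interval 0.61 to 1.95; adjusted p = 0.00678), where Ccrl2 rose. The difference was positive in all 3 replicate numbers (1.33, 1.23 and 0.86). Leaving out the densest gel of replicate 2 gave 0.96 with the block (adjusted p = 0.00314), a setting added after the values were seen.

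**Figure D4:**
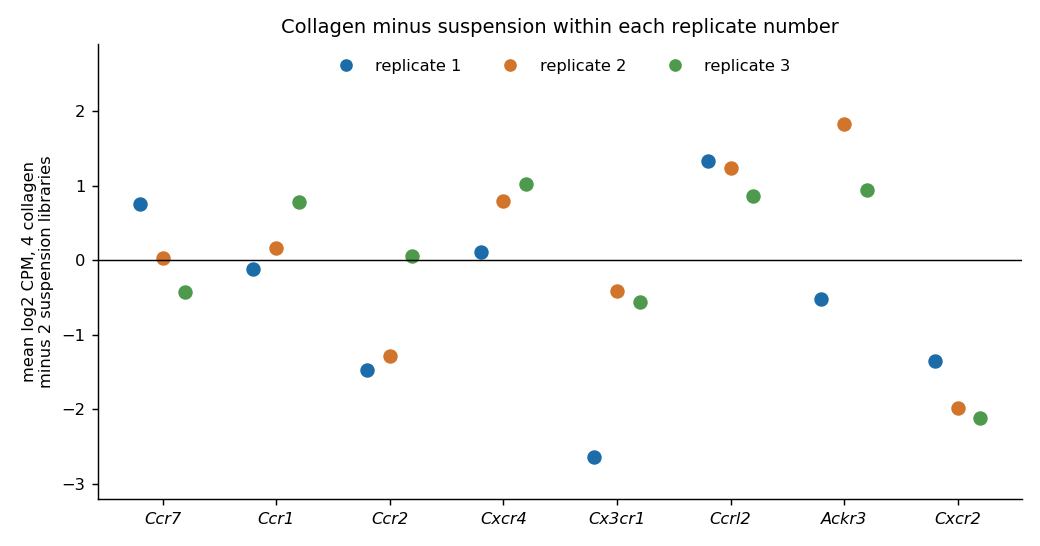
Mean log2 CPM of the collagen libraries minus that of the suspension libraries within each replicate number, for each of the 8 receptors, with a line at 0. Ccrl2 and Cxcr4 are above 0 and Cxcr2 and Cx3cr1 below 0 in all 3 replicate numbers, and Ccr7 runs from 0.76 in replicate 1 to -0.43 in replicate 3.

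Cxcr4 (ENSMUSG00000045382, chromosome 1, 128588199 to 128592293, minus strand), the signalling CXCL12 receptor, had a pattern much like that of Ccrl2. It measured 128, 62.4 and 43.8 CPM at 1.7 mg/ml, 154, 95.6 and 93.8 CPM at 2.6 mg/ml, 192, 54.8 and 38.2 CPM at 3.5 mg/ml and 256, 181 and 50.6 CPM at 4.4 mg/ml in replicates 1, 2 and 3. Suspension libraries were at 163, 50.2 and 46.1 CPM in the group titled with CCL19 and at 164, 50.4 and 14.8 CPM in the other. As for Ccrl2, replicate 1 was the highest in each group. The log2 fold change of collagen against suspension was 0.41 ± 0.49 (SE; adjusted p = 0.634), and with the block 0.62 ± 0.24 (adjusted p = 0.0620), where Cxcr4 rose. By replicate number it was 0.11, 0.80 and 1.02. Without the densest gel of replicate 2 the blocked value was 0.51 (adjusted p = 0.0890). Centred by replicate number, Cxcr4 and Ccrl2 had r = 0.697 over the 18 libraries, which share scaling and source. That value still holds the collagen difference, in which both rose with the block.

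Ccrl2, Cxcr4 and Ackr3 were set beside genes of macrophages and monocytes. The 7 markers used (Adgre1, Fcgr1, Csf1r, Mertk, Cd14, Ly6c2, Lyz2) summed to 1570.2 to 9219 CPM in collagen and 1462 to 6980.2 CPM in suspension, none was at 0 in any library, and the densest gel of replicate 2 had the highest sum, 9219 CPM. Of the 7, 0 were called without the block, beside 20.2% of all genes. With the block 4 rose (Adgre1, Cd14, Fcgr1 and Lyz2), beside 15.6% of all genes called higher. Ccrl2 followed the sum with r = 0.790, Cxcr4 with r = 0.591 and Ackr3 with r = 0.597, centred by replicate. With the DC marker sum the values were 0.533, -0.138 and 0.149 in the same order. Ackr3 had only 0 to 58 counts per library in replicates 2 and 3. In replicate 1 its highest level (40.9 CPM) came with a macrophage sum of 6980.2 CPM and its lowest (12.9 CPM) with 7045.6 CPM. The part of these cells in the Ccrl2 and Cxcr4 differences was not tested. The genes most like Ccrl2 were Dirc2 (r = 0.958), Pim3 (r = 0.947) and Maff (r = 0.943), and those most like Cxcr4 were Sik1 (r = 0.942), Nlgn2 (r = 0.910) and Gm37123 (r = 0.904).

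The upstream windows of Ccrl2 (249 bases) and Cxcr4 (250 bases) are shown because both rose with the block.
Ccrl2 (chr9:111057520-111057768, minus strand): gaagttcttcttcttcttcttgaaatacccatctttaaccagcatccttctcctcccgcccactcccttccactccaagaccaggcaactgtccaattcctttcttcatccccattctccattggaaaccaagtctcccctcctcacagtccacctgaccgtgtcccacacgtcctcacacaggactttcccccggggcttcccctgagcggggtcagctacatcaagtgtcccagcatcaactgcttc
Cxcr4 (chr1:128592300-128592549, minus strand): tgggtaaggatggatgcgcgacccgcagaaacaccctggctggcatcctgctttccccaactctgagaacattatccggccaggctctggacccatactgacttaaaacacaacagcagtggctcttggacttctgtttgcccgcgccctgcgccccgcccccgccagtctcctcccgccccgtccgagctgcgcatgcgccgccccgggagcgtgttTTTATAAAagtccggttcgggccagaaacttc
The Cxcr4 window holds TATA letters on both strands at overlapping positions 219 and 221 of the window, in capitals. In the Ccrl2 window no exact match to the 6 patterns was found, and looser forms, such as other kappaB sites, were not searched. A window for Ccr7 was not used here.

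Ackr3 (ENSMUSG00000044337, chromosome 1, 90203980 to 90216751, plus strand), the atypical CXCL12 receptor, stood high in replicate 1 alone. In replicate 1 it measured 34.6, 33.4, 26.9 and 12.9 CPM from the loosest to the densest gel, 40.9 CPM in suspension titled with CCL19 and 31.7 CPM in the other. In replicates 2 and 3 all 12 libraries lay between 0 and 3.50 CPM, and 1 of them, the 3.5 mg/ml gel of replicate 3, had no count, which allows up to 0.223 CPM. The replicate number held 82.6% of the variance of its log2 CPM. The collagen difference was -0.38 ± 1.35 in log2 (SE; adjusted p = 0.888) without the block and 0.87 with it (adjusted p = 0.317), so no direction was resolved. Its upstream window is shown as that of the receptor with the largest spread between replicate numbers.
Ackr3 (chr1:90203730-90203979, plus strand): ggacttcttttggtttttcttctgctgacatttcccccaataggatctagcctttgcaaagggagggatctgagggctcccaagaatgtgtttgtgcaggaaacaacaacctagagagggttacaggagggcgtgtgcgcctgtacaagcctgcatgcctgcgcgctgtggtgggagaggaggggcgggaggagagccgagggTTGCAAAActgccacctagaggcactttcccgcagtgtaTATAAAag
It holds a CEBP match at position 204 and a TATA match at position 243 of its 250 bases.

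The test of differences among replicate numbers, also added after the values were seen, called 6 of the 8 receptors, where 48.3% of all genes were called. Adjusted p-values were 4.04e-06 for Ccr1, 4.92e-06 for Ackr3, 5.34e-06 for Ccrl2, 6.89e-05 for Cxcr4, 0.00306 for Cxcr2 and 0.0755 for Ccr2. Ccr7 (0.185) and Cx3cr1 (0.690) were not called. The replicate number held 67.3% of the variance for Ccrl2, 64.6% for Cxcr4, 30.2% for Ccr7, 28.1% for Cxcr2, 25.9% for Ccr2 and 8.73% for Cx3cr1, beside 25.5% for the median tested gene. Of the 8, Ccr7 had the smallest total spread, with an SD of 0.36 in log2 CPM.

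Collagen density was compared within the gels. No receptor passed the test of a linear trend over the 4 densities, where 0.00722% of all genes were called without and 1.45% with the block. The slope of Ccr7 was 0.02 per mg/ml (interval -0.24 to 0.28) and 0.01 with the block (interval -0.21 to 0.23; adjusted p = 0.985). Ccrl2 had the largest slope, 0.57 ± 0.18 per mg/ml with the block (SE; unadjusted p = 0.00528, adjusted p = 0.155). It was 0.20 (adjusted p = 0.584) without the densest gel of replicate 2. Blocked slopes of Ccr1 (-0.29, adjusted p = 0.252) and Cxcr2 (-0.51, adjusted p = 0.319) pointed down and missed the threshold. At an unadjusted p under 0.05, 0 receptors were found without and 3 with the block. The share of all genes at that unadjusted limit is not given here, so these counts are not read as a density result.

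The densest against the loosest gel likewise gave no call among the 8 (0.00722% of all genes without and 1.73% with the block). The blocked differences were 1.71 ± 0.52 for Ccrl2 (adjusted p = 0.130), -1.44 ± 0.65 for Cxcr2 (adjusted p = 0.317) and 0.98 ± 0.38 for Cxcr4 (adjusted p = 0.235). For Ccrl2 the replicate numbers gave 0.55, 3.47 and 0.38 and for Cxcr4 1.00, 1.53 and 0.21, with replicate 2 the largest for both. None of the 3 steps from a density to the next called a receptor or any gene. The numbers of genes with unadjusted p under 0.05 for these steps were 542, 117 and 469 without and 1207, 580 and 1448 with the block.

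**Figure D5:**
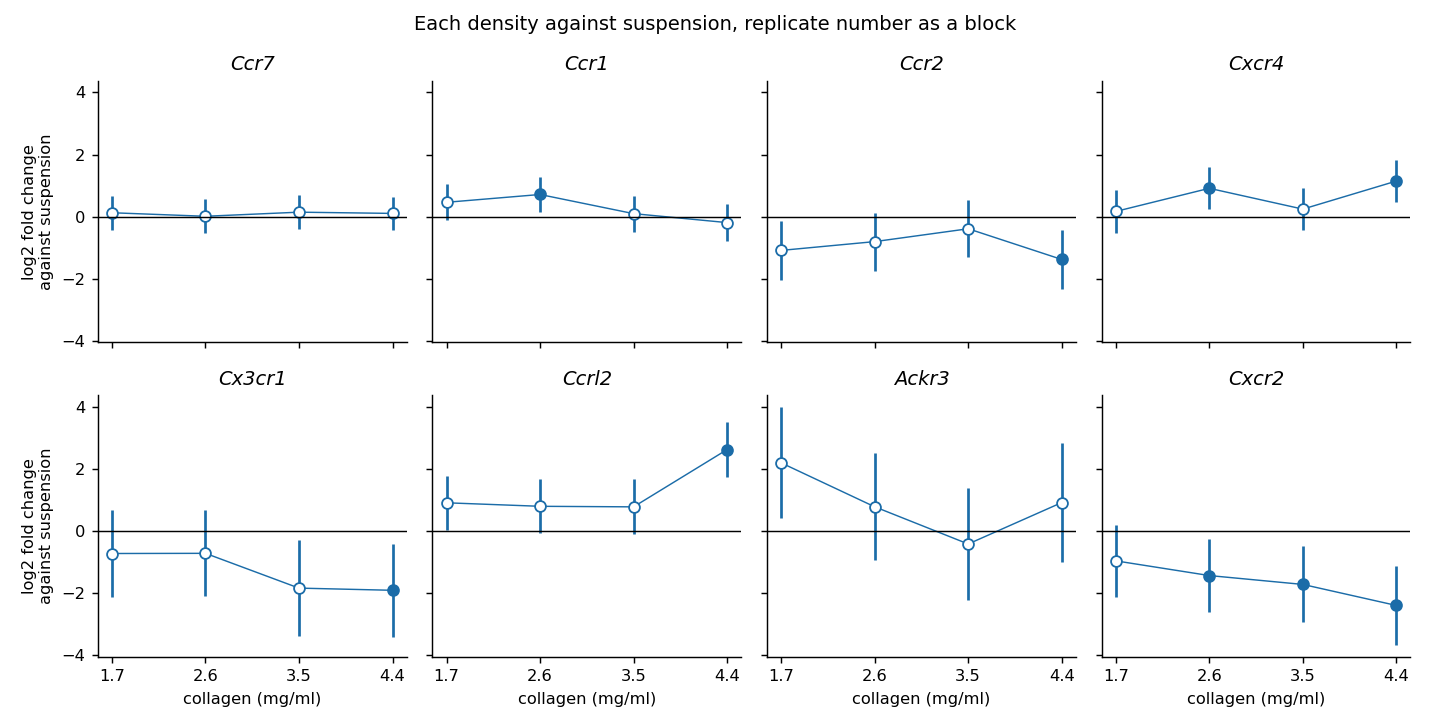
Log2 fold change of each collagen density (mg/ml, horizontal axis) against suspension for the 8 receptors, from the fit with the replicate block, with 95% intervals, filled where called. Ccr7 stays near 0 at all 4 densities, Cxcr2 is called at the 3 higher densities, and Ccrl2 is called at 4.4 mg/ml alone, at 2.62.

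Each density was also set against suspension. At 4.4 mg/ml, where 14.8% of all genes were called, Cxcr2 alone was called without the block, at -2.69 ± 0.97 in log2 (SE; adjusted p = 0.0914). With the block, where 31.9% of all genes were called, 5 receptors passed. Ccrl2 rose by 2.62 ± 0.42 (interval 1.74 to 3.51; adjusted p = 0.00034) and Cxcr4 by 1.15 (adjusted p = 0.0149). Cxcr2 (-2.39, adjusted p = 0.00863), Ccr2 (-1.38, adjusted p = 0.0354) and Cx3cr1 (-1.91, adjusted p = 0.0617) fell. Without the densest gel of replicate 2, 0 receptors were called without the block, and 2 with it, Ccrl2 at 1.47 (adjusted p = 0.00499) and Cxcr2 at -1.78 (adjusted p = 0.0410).

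At the lower densities 0 receptors were called without the block, beside 0.0361% of all genes for the loosest gel, 7.87% at 2.6 mg/ml and 4.9% at 3.5 mg/ml. With the block, 3 passed at 2.6 mg/ml (21.6% of all genes), namely Cxcr4 at 0.91 (adjusted p = 0.0646), Ccr1 at 0.72 (adjusted p = 0.0887) and Cxcr2 at -1.43 (adjusted p = 0.0937). At 3.5 mg/ml 1 passed (18.4% of all genes), Cxcr2 at -1.72 (adjusted p = 0.0656), and at 1.7 mg/ml 0 passed (2.91% of all genes), where Cxcr2 was at -0.96. Comparisons of the 4 densities share their suspension libraries. A test of any difference among the 6 groups called 0 receptors without the block (4.9% of all genes) and 3 with it (24.3%), which were Ccrl2 (adjusted p = 0.00600), Cxcr2 (0.0409) and Cxcr4 (0.0786).

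The suspension groups, whose labels on CCL19 conflict, did not separate any of the 8 receptors. In both fits edgeR's quasi-likelihood test called 0 genes, 855 genes without and 1960 with the block had an unadjusted p under 0.05, and 0 receptors were among them in either fit. Ccr7 measured 4439 ± 2026 CPM (SD, n = 3) in the group titled with CCL19 and 3521 ± 1347 CPM (SD, n = 3) in the other.

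Of 15 other chemokine receptors, 14 were matched to a row and 5 were tested, of which 1 rose and 1 fell in both fits. The share of all genes called was 20.2% without and 34.8% with the block. Ccr3, the eotaxin receptor of eosinophils, was between 0 and 0.823 CPM in collagen and between 1.94 and 9.42 CPM in suspension, with no overlap over the 18 libraries, as in 1.52% of tested genes. Its log2 fold change was -3.51 ± 0.49 (SE; adjusted p = 0.000583). Of the 8 eosinophil markers, 7 were tested and all 7 fell. Over all genes, 12.4% were called lower without the block and 19.3% with it. Among collagen libraries Il5ra was at 0 in 8, Ear1 in 2 and Prg3 in 1, while Siglecf, Epx, Prg2, Ear2 and Ear6 were detected in every library. A sum of 6 basophil and mast cell markers was 30.9 to 265 CPM in collagen and 27.2 to 244 CPM in suspension. Among them Ms4a2 and Prss34 fell, with the block alone. Centred by replicate, Ccr3 had r = 0.791 with the eosinophil sum and r = 0.546 with this sum. The part of any of these cells in the Ccr3 value was not tested. Xcr1, a marker of cross-presenting DCs, ranged from 0.715 to 3.48 CPM in suspension and from 1.08 to 10.0 CPM in collagen, where it rose by 1.15 ± 0.41 in log2 (adjusted p = 0.0740). Ccr4 (0.09, adjusted p = 0.846) and Cxcr5 (-0.40, adjusted p = 0.251), at 6.64 and 4.13 RPKM, were not called.

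Of 15 tested ligands of the 8 receptors, 5 rose and 1 fell without the block, beside 7.78% higher and 12.4% lower of all genes. With the block 9 rose and 1 fell, beside 15.6% and 19.3%. Without the block, 2 to 7 ligands were called when libraries were left out. The ligands had a median log2 fold change of 1.24 (1.42 with the block). The CCR1 ligand Ccl3 was at 114 CPM on average in collagen and 29.8 CPM in suspension (log2 fold change 1.77, adjusted p = 0.00634), and Ccl4 at 31.9 and 10.8 CPM (1.55, adjusted p = 0.0284). Among CXCR2 ligands, Cxcl1 was at 29.5 and 8.36 CPM (1.71, adjusted p = 0.0706), opposite to its receptor. Cx3cl1, the ligand of CX3CR1, fell from 247 to 130 CPM (-0.93, adjusted p = 0.00809), the same direction as Cx3cr1. Ccl19 and the Ccl21 genes were not analysed here.

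Of 22 tested genes that couple these receptors to movement or switch them off, 1 rose and 4 fell without the block (20.2% of all genes called), and 5 rose and 5 fell with it (34.8%). Leaving libraries out gave 3 to 7 calls. Rap1b, a small GTPase of integrin activation, was at 447 CPM in collagen and 209 CPM in suspension (log2 fold change 1.12, adjusted p = 0.00226). Arrb1, which encodes the desensitizing protein beta-arrestin 1, fell from 594 to 294 CPM (-1.08, adjusted p = 0.00308). The receptor kinase Grk6 fell from 144 to 71.2 CPM (-0.99, adjusted p = 0.00619). Pik3cg, the catalytic subunit of the G protein-activated PI3 kinase gamma, fell from 201 to 112 CPM (-0.87, adjusted p = 0.0259).

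Among 15 tested receptors for other chemoattractants, 3 rose and 3 fell without the block (20.2% of all genes called) and 4 rose and 5 fell with it (34.8%). Leaving libraries out gave 2 to 6 calls, and each of the 6 named here lost its call in at least 1 such setting. The prostaglandin E2 receptor Ptger2 (1.49, adjusted p = 0.0745), the oxysterol receptor Gpr183 (1.06, adjusted p = 0.00559) and the sphingosine phosphate receptor S1pr3 (0.82, adjusted p = 0.0411) rose. The complement C5a receptors C5ar2 (-2.23, adjusted p = 0.0366) and C5ar1 (-1.30, adjusted p = 0.0348) and the leukotriene receptor Ltb4r2 (-2.003, adjusted p = 0.0292) fell.

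The remaining likeness values, again after subtraction of replicate means over 18 libraries, named Soat1 (r = 0.862), Ing5 (0.860) and Nqo1 (0.858) for Ccr1 and 0610009B22Rik (0.951), Mir9-3hg (0.942) and Snx9 (0.904) for Ccr2. They named Gm30238 (0.829), Wiz (0.819) and Map3k4 (0.814) for Cx3cr1, Bcar1 (0.830), Ddit4 (0.829) and Gm20560 (0.821) for Ackr3, and Mcm2 (0.900), Gm34680 (0.890) and Rflnb (0.885) for Cxcr2. Among the receptors themselves, Ccrl2 ran against Ccr2 (r = -0.759) and Cxcr2 (r = -0.635). Centring by replicate number kept the collagen difference, in which Ccrl2 rose with the block and Ccr2 and Cxcr2 fell. These values are therefore not separate from that difference.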

How the data were processed

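The authors aligned stranded mRNA reads (50 bases, single-end) to the mouse genome with STAR 2.7.0f (GRCm38, per the submitters' processing notes) and deposited a table of whole-number counts per gene for the 18 libraries. The tool that made these counts is not given in the sources used here, and the study's TPM values were not used. Gene positions, lengths and GC content came from the GRCm38 annotation, and promoter windows from RefSeq (7 of 8 receptors matched).

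Genes were filtered with filterByExpr, scaled by TMM and tested with edgeR 4.0.16 (quasi-likelihood F-test, R 4.3.3) over all 6 groups, with Benjamini-Hochberg adjustment over 13844 genes and a threshold of 0.1. Log2 CPM used a prior count of 2, intervals are 95%, and zero counts were given the limit of 3 counts. Collagen against suspension compared the mean of the 4 gels with the mean of the 2 suspension groups. DESeq2 1.42.0 and other settings were alternatives. The scripts were tested on simulated data.

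Replicate numbers go with a shared string in the library names, read here as run, date and lane. Deviations from the group means had a mean correlation of 0.434 over 45 pairs with the same number (lowest -0.149) and -0.214 over pairs with different numbers, so the number was used as a block in a second fit. The biological coefficient of variation was 49.0% without and 33.1% with it. No 2 libraries of 153 pairs were identical.

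The 8 receptors, the gene lists and the tests were chosen with earlier results of these data known. Beyond the 8, the text names up to 3 called genes per list and direction (marker lists apart), other chemokine receptors of at least 1 CPM in a group, and the 3 genes most correlated with each receptor. Markers were described as sums and counts. Some genes of the lists are not reported here and were left out of the sums and counts.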

Additional observations from a re-analysis of the deposited data

How the results depend on the processing

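Of 588 log2 fold changes recomputed under other settings, 40 newly passed the threshold, 42 lost it and 22 changed sign, and the rest kept their direction and side. The cause was not tested for any of them. The Cxcr2 fall in collagen kept its sign in every setting run. Among the other named genes, leaving a replicate out ended the call without the block of Xcr1, S1pr3 and Cd200 for each of the 3 replicates (adjusted p up to 0.289, 0.197 and 0.347). It did so for Cd80 (up to 0.147), Cxcl1 (0.374), Ptger2 (0.312), C5ar1 (0.484), C5ar2 (0.185) and Ltb4r2 (0.384) for 2 of them. For 1 of them it did so for Ccl4 (0.125), Cx3cl1 (0.122), Arrb1 (0.143), Pik3cg (0.266) and Gpr183 (0.124). No scaling moved the median of all genes by more than 0.1.

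The replicate block, which follows the date and lane as read from the library names, raised the number of receptors called from 2 to 5 for collagen against suspension, from 1 to 5 at 4.4 mg/ml, from 0 to 3 at 2.6 mg/ml, from 0 to 1 at 3.5 mg/ml and from 0 to 3 for any group difference. It changed no other count of receptors called. Counts over all genes under these settings are given in the next paragraph for collagen against suspension. In the same order of comparisons, DESeq2 with the replicate block gave 5, 5, 3, 2 and 5, the block with GC and length offsets gave 4, 5, 2, 1 and 4, and the block without the densest gel of replicate 2, a setting chosen after seeing the data, gave 5, 2, 4, 2 and 2. DESeq2 with the block also called 1 receptor each for the trend, for 4.4 against 1.7 mg/ml and for 4.4 against 3.5 mg/ml (Ccrl2 each time) and for 1.7 mg/ml against suspension (Ackr3), and the block with offsets called 1 (Ccrl2) for the trend and for 4.4 against 1.7 mg/ml.

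Without the filter on low counts, in the order above, 4, 6, 2, 1 and 2 receptors were called. DESeq2 without the block called 3 at 4.4 mg/ml, and a fit of the compared libraries alone called 2 there. At a threshold of 0.05, 0 receptors were called for collagen against suspension and at 4.4 mg/ml, and 1 of the other receptors. Leaving out a replicate or the densest gel of replicate 2 gave 0 to 2 for collagen against suspension, 0 to 4 at 4.4 mg/ml, 0 to 1 for any difference and 1 to 2 for the other receptors. Over all genes, the count for collagen against suspension was 2790, and 4823 with the block, 5326 with DESeq2 and the block, 1793 at a threshold of 0.05 and 631 to 2958 with libraries left out. It was 5123 with the block and offsets, 5401 with the block and no densest gel of replicate 2, 2715 without the filter and 3368 with DESeq2 alone. With libraries left out, 106 to 1615 genes were called at 4.4 mg/ml and 0 to 612 for any difference. Receptor counts under the other alternative settings have no such background beside them here.

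Signs changed for small or replicate-bound values. In collagen against suspension, Ackr3 was 0.87 with the block, 1.36 with DESeq2 and the block, 0.82 with the block and offsets, 2.08 without replicate 1 (lowest with a replicate left out -0.44) and 0.43 with the block and no densest gel of replicate 2. At 4.4 mg/ml it was 0.92, 1.64, 0.81 and 3.37 under the first 4 of these (lowest with a replicate left out -1.42). Ccr7 was -0.19 without replicate 1, with a range of -0.19 to 0.35 when a replicate was left out. At 4.4 mg/ml it was -0.036 with offsets, and -0.070 without replicate 1 (range -0.070 to 0.22). Its slope was -0.0050 with the block and offsets, and -0.069 without replicate 3 (range -0.069 to 0.070). Ccr1 was -0.15 with offsets and -0.050 without replicate 3 (range -0.050 to 0.46). The Ccr2 slope was -0.051 with the block, -0.042 with DESeq2 and the block, -0.016 with offsets, -0.055 with both and -0.23 without replicate 1 (range -0.23 to 0.14). Ccr4 was -0.14 without replicate 3 (range -0.14 to 0.42).

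Depth limits Cx3cr1, Ccr2, Cxcr2 and Ackr3, where few counts stood behind a library, and Ccr7 the least.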
